A study of Mus musculus with 16 samples.

Results

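Respiratory chain genes were followed in mouse TM4 cells, an established line with features of Sertoli cells, the somatic cells that surround germ cells in the testis. The members were the protein-coding genes with a mitochondrial *mt-* symbol, or with a symbol of the *Nduf*, *Sdh*, *Uqcr*, *Cox4* to *Cox8* or *Atp5* families of subunits, pseudogenes left out. The rule used symbols alone and no measured value, and it gave 99 of the 56748 genes counted, 13 encoded by the mitochondrial genome and 86 by the nucleus. TM4 cells received 2.5 µg of plasmid per well with Lipofectamine 3000 at 24 h after seeding, and RNA was taken 24 h later. The plasmid was the empty vector pcDNA3.1-HA (EV, 6 samples), pcDgdf6Y with the killifish gene *gdf6Y*, which encodes a growth factor of the BMP family (gdf6Y, 5 samples), or pcDgdf6Ydel9 with a mutated *gdf6Y* (del9, 5 samples). Transfection was transient, so a sample can mix cells with and without plasmid. Nothing in the sources used here says that samples of a group came from separate cultures, so the p-values speak for these samples only. Those of the main edgeR test between groups rest mostly or wholly on a spread shared between genes, as described below. In such bulk samples, fewer cells with a transcript and less transcript per cell cannot be told apart.

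Oxidative phosphorylation is the work of 5 complexes in the inner mitochondrial membrane. Complex I takes electrons from NADH and complex II from succinate, complex III passes them to cytochrome c, complex IV passes them to oxygen, and complex V, the ATP synthase, uses the proton gradient to make ATP. Complex II is encoded by nuclear genes alone, while the other complexes combine subunits encoded by the nucleus with subunits encoded by the mitochondrial genome. The mitochondrial genome is read from both strands as long transcripts that are cut into single RNAs. All of its mRNAs but *mt-Nd6* come from the heavy-strand transcript, and *mt-Nd6* comes from the opposite, light-strand transcript.

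Between 21486850 and 26444903 reads per sample were counted on genes. The Sertoli cell markers *Gata4* and *Kitl* were counted at 605 to 872 reads per sample. The other Sertoli markers were lower, with 68 to 116 reads for *Dhh*, 17 to 40 for *Inha* and 3 to 13 for *Amh*. *Wt1* was at 0 in all samples, and *Fshr* and *Cldn11* had at most 1 read. Of the markers of other testis cells, *Acta2* of myoid cells had 3985 to 5336 reads. The other myoid markers were low, with 32 to 62 reads for *Des*, 22 to 41 for *Cnn1* and at most 3 for *Myh11*. The Leydig and germ cell markers had at most 34 reads each, and no gene of the Leydig, germ cell or myoid lists passed the test in any comparison (edgeR, adjusted p below 0.05), with 1 myoid gene at an unadjusted p below 0.05. *Gata4* was lower with gdf6Y than with EV (log2 fold change -0.20, SE 0.04, adjusted p = 9.98e-05, edgeR), and its part in the results for respiratory chain genes was not tested.

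The sequence of the mitochondrial genome set which of the 13 mitochondrial members could be counted at all. Reads with more than 1 place in the genome were discarded by the authors. A stretch of the mitochondrial genome, chrM:6394-11042 in GRCm39, is repeated on the minus strand of chr1:24650616-24655265, with 1 substitution, T9461C, and 1 added base next to position 9828. The substitution is written with the mitochondrial base first, its chrM position, and then the base of the nuclear copy. The pair of lines around it shows how alike the copies are, with the differing base in capitals, for chrM:9431-9491 on the plus strand and chr1:24652168-24652228 on the minus strand.
mitochondrial genome: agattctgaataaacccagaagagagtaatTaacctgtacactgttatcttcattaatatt
nuclear copy: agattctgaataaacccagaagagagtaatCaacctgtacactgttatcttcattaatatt
The start of *mt-Co2*, chrM:7013-7072 on the plus strand, lies inside the copied stretch and is identical at chr1:24654587-24654646. The start of *mt-Nd6*, chrM:14011-14070 read on the minus strand, lies outside it. Both are shown with the start codon in capitals.
*mt-Co2*: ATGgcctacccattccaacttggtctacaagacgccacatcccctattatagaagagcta
*mt-Nd6*: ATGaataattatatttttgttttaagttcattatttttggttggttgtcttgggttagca

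All windows of read length of *mt-Co2*, *mt-Atp8*, *mt-Atp6*, *mt-Co3* and *mt-Nd4l*, and 98.8% of those of *mt-Nd3*, had an exact copy elsewhere in the genome. These 6 neighbouring genes had at most 1 read in any of the 16 samples. They encode subunits of complexes I, IV and V, and their low counts say nothing of how much of their mRNA the cells held. *mt-Nd4* had copies for 60.7% of its windows and *mt-Co1* for 30.7%, so their counts come from the rest of the gene. For *mt-Nd2* the share was 3.09%, and for *mt-Nd1*, *mt-Nd5*, *mt-Nd6* and *mt-Cytb* it was 0. The mitochondrial members with usable counts were thus *mt-Nd1*, *mt-Nd2*, *mt-Nd4*, *mt-Nd5* and *mt-Nd6* of complex I, *mt-Cytb* of complex III and *mt-Co1* of complex IV.

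Of the nuclear members, 79 of 86 averaged 10 or more reads per sample. The 7 below this were the paralogs *Cox4i2*, *Cox6b2*, *Cox7a1*, *Cox7b2*, *Cox8b* and *Cox8c* and a separate identifier of *Atp5po* without a read. In the paralog groups of complex IV, 1 form was counted far above the others, except that both *Cox7a2* and *Cox7a2l* were well counted. *Cox4i1* had 9401 ± 193 normalized counts with EV (SD, n = 6), and its paralog *Cox4i2* had at most 1 read in any sample. *Cox6a1* had 4103 ± 201 and *Cox6a2*, the form known from heart and skeletal muscle, 20.2 ± 4.53. *Cox6b1*, *Cox7b* and *Cox8a* had 2891 ± 83.4, 2771 ± 122 and 4998 ± 114, while *Cox6b2*, *Cox7b2*, *Cox8b* and *Cox8c*, known mostly from testis, muscle or brown fat, had at most 1 read in any sample. A count of 0 allows up to 3 reads in a sample. *Cox7a2* had 2716 ± 117, *Cox7a2l*, which binds complexes III and IV together, 1679 ± 118, and the muscle form *Cox7a1* at most 3 reads. Normalized counts are counts scaled by the edgeR TMM library size to the mean of the 16 samples.

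Levels between genes were compared as CPM per kilobase of canonical transcript, with EV samples as the base. *mt-Co1* had the highest level of all members at 4691 ± 597 (SD, n = 6), followed by *mt-Nd1* at 2444 ± 148 and *mt-Cytb* at 1640 ± 182. The level of *mt-Nd6* was 71.9 ± 4.64, the lowest of the mitochondrial members with usable counts. RNA was selected by its poly(A) tail, and how well each mRNA was captured was not measured. Among nuclear members, *Atp5f1b*, the catalytic beta subunit of ATP synthase, was highest at 971 ± 8.23, and *Atp5f1a*, its alpha partner, came next at 498 ± 3.48. The neighbours *Atp5f1a* and *Cox4i1* (489 ± 9.87) in this order had overlapping spreads.

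By complex, the median level with EV was 62.8 over 37 nuclear genes of complex I, 70.5 over 4 of complex II, 72.5 over 8 of complex III, 136 over the 13 genes of complex IV at a level of at least 0.1, and 122 over 18 of complex V. The highest and lowest levels were *Ndufa4* (388) and *Ndufb2* (2.42) for the *Nduf* genes, *Sdhd* (108) and *Sdhb* (28.9) for complex II, *Uqcr10* (199) and *Uqcr11* (17.8) for complex III, *Cox4i1* (489) and *Cox7a1* (0.129) for complex IV, and *Atp5f1b* (971) and *Atp5mg* (4.37) for complex V. These levels depend on the annotated transcript length, such as 4030 bases for *Sdhb* and 1258 for *Sdhd*. Which transcripts the cells used was not tested. *Ndufa4* is counted here with complex I by its symbol and is now placed in complex IV. By normalized counts rather than level, the highest with EV were *Ndufa4* (5047), *Sdha* (6743), *Uqcrc1* (6552), *Cox4i1* (9401) and *Atp5f1b* (45932), and *Ndufb4* (141), *Sdhb* (2866), *Uqcr11* (1199) and *Atp5mg* (59.1) were the lowest detected ones of complexes I, II, III and V. For *Ndufb4*, 37.9% of the windows had a copy elsewhere. Copies also covered 87.5% of the windows of *Atp5mc2*, 68.2% of *Cox7c*, 64.8% of *Atp5mc1*, 61.5% of *Ndufs5* and 57.3% of *Atp5mg*, so the levels of these genes leave out reads from the copied parts.

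The share of counted reads on mitochondrial members was compared first. It leaves out the 6 genes without usable counts and the copied parts of *mt-Co1* and *mt-Nd4*, so it is not the share of the cells' mRNA. The mitochondrial members together took 1.20% of the counted reads in the lowest EV sample, 1.49% at the median and 1.61% in the highest. In gdf6Y samples 1 to 5 the share was 1.1%, 1.63%, 1.66%, 1.93% and 1.82%. In del9 samples 1 to 5 it was 1.25%, 1.34%, 1.3%, 1.68% and 1.67%. The 3 groups overlapped, and gdf6Y held both the lowest and the highest sample of the series. The group means were 1.46% ± 0.145 (SD, n = 6) for EV, 1.63% ± 0.321 (SD, n = 5) for gdf6Y and 1.45% ± 0.211 (SD, n = 5) for del9, and the differences of 0.165 percentage points for gdf6Y against EV and 0.182 for gdf6Y against del9 were smaller than the SD within gdf6Y. The 95% Wilson intervals of single samples reached at most 0.0055 percentage points to either side, and cover counting error only.

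The nuclear members took a smaller and steadier share. It was 1.1% ± 0.0154 for EV, 1.14% ± 0.0202 for gdf6Y and 1.14% ± 0.0215 for del9 (SD, n = 6, 5 and 5). The largest EV sample, at 1.12%, overlapped the lowest gdf6Y and del9 samples, both at 1.12%. Complex V was the 1 complex whose share did not overlap: 0.508% to 0.522% in EV samples, 0.523% to 0.541% with gdf6Y and 0.524% to 0.545% with del9. The gap was narrow, and the sum rests mostly on *Atp5f1b* and *Atp5f1a*. In EV replicate 1 these had 49086 and 31615 reads, and the next gene of complex V, *Atp5mc3*, had 9842. For complex I the ranges were 0.253% to 0.266%, 0.264% to 0.278% and 0.261% to 0.274%, which overlapped with EV at their lower ends. Complexes II, III and IV overlapped as well, with means with gdf6Y that were 2.30%, 3.40% and 4.36% above those with EV.

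Relative to the nuclear subunits of the same complex, mitochondrial reads were 2.13 ± 0.163 times as many for complex I with EV, 2.22 ± 0.357 with gdf6Y and 2.07 ± 0.279 with del9 (SD). For complex III, *mt-Cytb* had 1.91 ± 0.222 times the reads of the nuclear subunits with EV, 2.23 ± 0.466 with gdf6Y and 1.97 ± 0.337 with del9. For complex IV, *mt-Co1* had 4.55 ± 0.608, 4.82 ± 1.13 and 4.20 ± 0.726 times the reads of the nuclear subunits. In each complex the group differences were below the SD within gdf6Y. Over all members, and with the same genes left out, the mitochondrial part of counted respiratory chain reads was 57.0% ± 2.81 with EV, 58.2% ± 5.49 with gdf6Y and 55.7% ± 3.75 with del9.

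**Figure D1:**
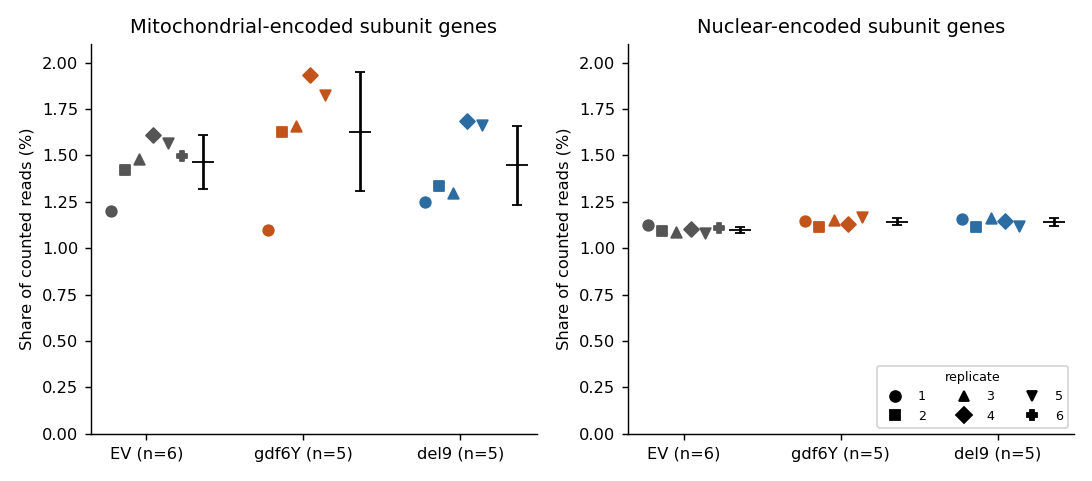
Points give, for each sample, the percent of counted reads on mitochondrial-encoded members (left) and on nuclear-encoded members (right), by group, with the replicate number as the symbol and the mean and SD as the bar beside them. The mitochondrial share spreads from 1.1% to 1.93% and is lowest in replicate 1 of each group, while the nuclear share stays between 1.08% and 1.17%.

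The replicate number, given in the labels of all 3 groups, went with the mitochondrial share. Replicate 1 had the lowest share among numbers 1 to 5 in EV (1.20%), gdf6Y (1.1%) and del9 (1.25%). Replicate 4 had the highest in each group, at 1.61%, 1.93% and 1.68%, and replicate 5 came second in each, at 1.57%, 1.82% and 1.67%. The mean over the 3 groups was 1.18% for number 1, 1.46% for 2, 1.48% for 3, 1.74% for 4 and 1.69% for 5, a wider span than that of the 3 group means. The nuclear share was highest in number 1 in EV, 5 in gdf6Y and 3 in del9. Replicate 1 had 25844048 counted reads in EV, the most of the 6 samples, 25062364 in gdf6Y, the second most of 5, and 25750027 in del9, the third most of 5. The part of depth in the order was not tested.

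Within a number, gdf6Y was 0.101 percentage points below EV for number 1 and 0.205, 0.176, 0.323 and 0.256 above EV for numbers 2 to 5. Against del9, gdf6Y was 0.150 below for number 1 and 0.290, 0.361, 0.25 and 0.157 above for numbers 2 to 5. Both differences had the same sign in 4 of 5 numbers, with means of 0.172 ± 0.162 and 0.182 ± 0.20 (SD, n = 5). Del9 was above EV in 3 of 5 numbers, with a mean difference of -0.00960 ± 0.121. For the nuclear share, gdf6Y was above EV in 5 of 5 numbers (mean difference 0.0449 ± 0.0281), del9 was above EV in 5 of 5 (0.0431 ± 0.02), and gdf6Y was above del9 in 1 of 5 (0.00185 ± 0.0253).

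In a model with group and replicate number over all 16 samples, 10 members passed the test for replicate number (edgeR quasi-likelihood F-test, Benjamini-Hochberg adjusted p below 0.05), against 5.67% of the 27448 genes tested. They were the 7 mitochondrial members with usable counts, *Ndufv3*, a small complex I subunit, *Cox7a2l* and *Cox4i1*. The spread of the mitochondrial members was far above what this fit assumed for genes of their abundance, so each was also tested on its own. The numbers were permuted exactly within gdf6Y and del9, over 14400 arrangements. The exact permutation p was 0.000139 for *mt-Cytb*, 0.000208 for *mt-Nd2*, 0.000764 for *mt-Nd4*, 0.000903 for *mt-Nd1*, 0.00104 for *mt-Nd5*, 0.00139 for *mt-Co1* and 0.0379 for *mt-Nd6*, without adjustment. With a robust prior, *mt-Co1*, *mt-Nd1* and *mt-Nd5* lost their call (adjusted p = 0.118, 0.0653 and 0.0555, edgeR). *mt-Nd6* lost it with DESeq2 (adjusted p = 0.0624, likelihood ratio test). *Cox4i1* lost it with DESeq2, with a correction for gene length and with a filter against genes with few reads (filterByExpr).

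The means over the 3 groups show the size of this order. *mt-Cytb* had 37889 normalized counts for number 1 and 50228, 48573, 56673 and 58948 for numbers 2 to 5. *mt-Co1* had 138891 for number 1 and 171347, 176721, 217351 and 205672 for numbers 2 to 5. *Ndufv3* followed a different order from that of the mitochondrial genes, with 1339 for number 1, 1311 for number 4 and 1122, 1198 and 1153 for numbers 2, 3 and 5 (exact permutation p = 0.00132). *Cox7a2l* had 1829 and 1751 for numbers 1 and 4 and 1592, 1646 and 1607 for numbers 2, 3 and 5 (exact permutation p = 0.00146). For *Cox4i1* the exact permutation p was 0.0800. What the replicate numbers stand for is not given in the sources used here.

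**Figure D2:**
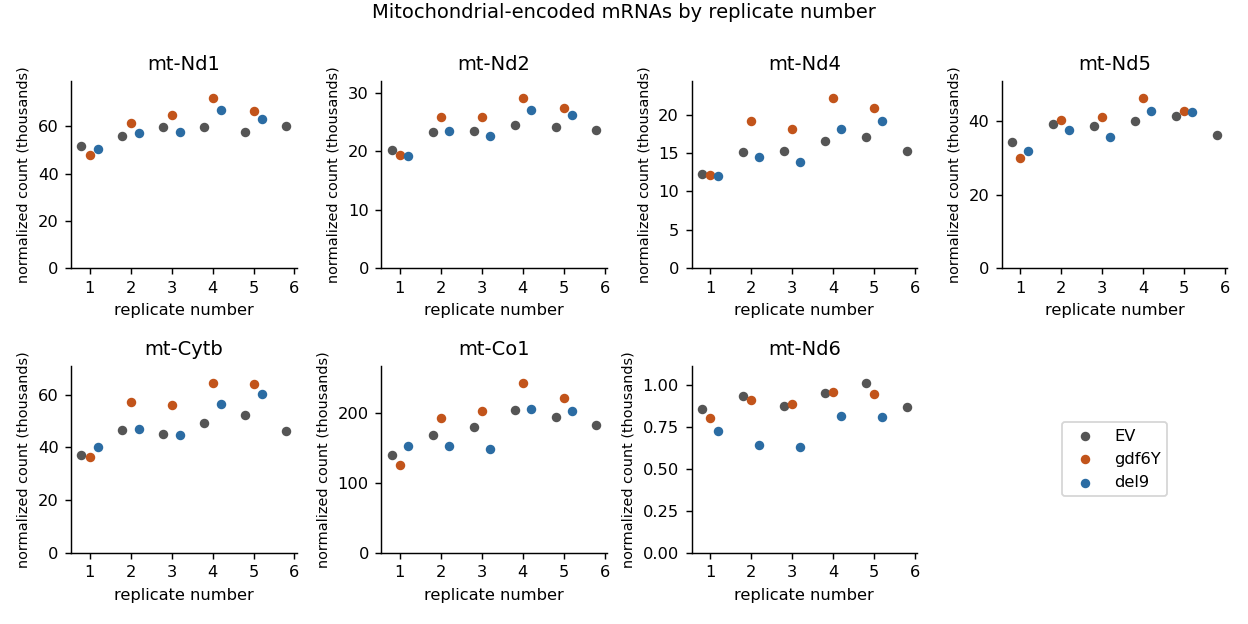
Points give normalized counts (divided by 1000) of the 7 mitochondrial mRNAs with usable counts against the replicate number, coloured by group, with each axis from 0. Replicate 1 is the lowest of numbers 1 to 5 in every group for *mt-Nd1*, *mt-Nd2*, *mt-Nd4*, *mt-Nd5* and *mt-Cytb*, and del9 lies below EV at every number for *mt-Nd6*.

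The comparison of gdf6Y with EV asks what expression of *gdf6Y* changed. Of 90 members tested, 15 were called higher, against 1.7% of all genes in that direction, and 0 were called lower, against 3.38% (edgeR quasi-likelihood test, adjusted p below 0.05). They were 5 mitochondrial members and 10 nuclear members, 7 of them of complex I. With filterByExpr, which leaves out genes with few reads, 10 members were higher, beside 456 of 12689 genes. The median log2 fold change of the 79 nuclear members was 0.07, beside 0.00 for the 12584 genes that averaged 10 or more reads per sample, and 73 of the 79 were above 0, beside 50.4% of those genes. An unadjusted p below 0.05 was reached by 52 members higher and 0 lower, and DESeq2 also called 0 lower. The number called rested on single libraries: it was 26 without EV replicate 1, 25 without gdf6Y replicate 2, 9 without gdf6Y replicate 3 and 8 without gdf6Y replicate 5.

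For the 5 mitochondrial calls, the size of the difference against the spread depended on how the spread was taken. *mt-Cytb*, the core subunit of complex III, had 36358, 57312, 55948, 64523 and 64217 normalized counts in gdf6Y samples 1 to 5, and 37146, 46426 and 52377 as the lowest, median and highest of EV. Replicate 1 of gdf6Y was below all EV samples and the other 4 were above them. The fit gave a log2 fold change of 0.27 with an SE of 0.03 (adjusted p = 3.80e-18, edgeR), while the SD between gdf6Y samples was 0.34 on the log2 scale, and an exact permutation test gave p = 0.154. The fit's prior degrees of freedom were 738 against 9 from the samples, which pulled the gene's own spread to that of other genes. They were infinite in the fits of gdf6Y against del9 and del9 against EV, so every SE and adjusted p printed for those comparisons by the edgeR test rests on no spread of the gene's own. With filterByExpr the adjusted p was 0.116, with a robust prior 0.474 and with DESeq2 0.184.

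These tests take no account of the replicate number. Within a number, the difference of gdf6Y minus EV in *mt-Cytb* was -788 normalized counts for number 1 and 10829.8, 10851, 15372 and 11840.0 for numbers 2 to 5 (mean 9621 ± 6110.0, SD, n = 5).

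The groups also overlapped for *mt-Nd4*, *mt-Nd2*, *mt-Nd1* and *mt-Co1*. Their log2 fold changes against EV were 0.28, 0.14, 0.12 and 0.15, and the exact permutation p-values were 0.152, 0.245, 0.286 and 0.498. None of the 4 passed with filterByExpr, DESeq2 or a robust prior, all without the replicate number. With the replicate number in the fit and filterByExpr, added after seeing the data, mitochondrial members including *mt-Cytb* and *mt-Co1* were called higher, as the last section gives. Within a number each was below EV for number 1 and above EV for the other 4. *mt-Nd5* and *mt-Nd6* had log2 fold changes of 0.07 and -0.03 and were not called.

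The nuclear genes called higher with gdf6Y differed from EV by 5.95% (*Atp5pb*) to 13.7% (*Ndufa5*). *Ndufa5*, a subunit of the arm of complex I that faces the matrix, had 825, 866, 866, 803 and 917 normalized counts in gdf6Y samples 1 to 5. In EV samples the lowest, median and highest were 717, 746 and 804. The groups overlapped only at the lowest gdf6Y sample and the highest EV sample. Its log2 fold change was 0.19 (SE 0.04, adjusted p = 0.000422, edgeR), and it was called without any 1 of the 11 samples, with an adjusted p of at most 0.0124.

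*Ndufv2*, an iron-sulfur subunit of the NADH-binding module, had 2893, 2924, 2977, 2879 and 3136 in gdf6Y samples and 2704, 2744 and 2799 as the lowest, median and highest of EV, with no overlap. Its log2 fold change was 0.11 (SE 0.03, adjusted p = 0.00673, edgeR). *Atp5pb*, the b subunit of the stalk that holds ATP synthase in place, had 7655, 7514, 7678, 7888 and 7886 with gdf6Y and 7181, 7291 and 7433 as the lowest, median and highest with EV. These groups did not overlap either (log2 fold change 0.08, SE 0.03, adjusted p = 0.0370, edgeR). *Ndufv2* lost its call in 1 of 11 leave-one-out fits, with a highest adjusted p of 0.0959, and *Atp5pb* in 6 of them.

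The other calls overlapped between the groups. They were *Ndufb7* (log2 fold change 0.14), *Ndufs6* (0.12), *Ndufc2* (0.12), *Ndufb10* (0.11) and *Ndufa4* (0.09) of the *Nduf* family, *Uqcrq* of complex III (0.09) and *Cox6a1* of complex IV (0.09). With filterByExpr, *Ndufs6*, *Ndufc2* and *Cox6a1* were not called. In all, 5 of the 86 members averaging 10 or more reads lay above EV without overlap, against 2.5% of all such genes, namely *Ndufv2*, *Atp5pb*, *Ndufb3*, *Atp5f1a* and *Atp5f1c*, the last 3 not called.

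**Figure D3:**
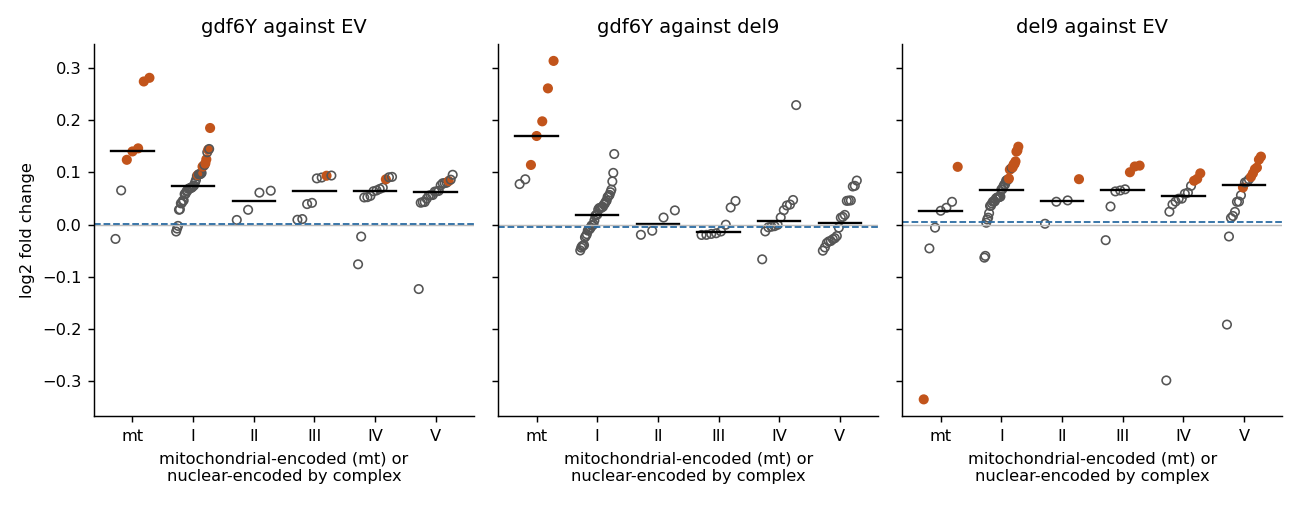
Points give the log2 fold change of each member averaging 10 or more reads in the 3 comparisons, for the mitochondrial members (mt) and the nuclear members by complex (I to V, by symbol), filled where the adjusted p was below 0.05, with the median of each set as a black line and the median of all genes as a dashed line. Most nuclear members lie just above 0 against EV and on both sides of 0 in gdf6Y against del9.

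The comparison of del9 with EV asks what expression of the mutated gene changed. Of 91 members tested, 25 were called higher, against 4.82% of all genes, and 1 was called lower, against 4.43%. These shares include genes with very few reads. With filterByExpr, which leaves such genes out, 19 members were higher, beside 1073 of 12696 genes. The 25 were *mt-Cytb* and 24 nuclear genes: 10 of complex I, 1 of complex II, 3 of complex III, 3 of complex IV and 7 of complex V. The median log2 fold change of the 79 nuclear members was 0.06, beside 0.01 for all genes that averaged 10 or more reads, and 73 of them were above 0. With a correction for gene length the numbers were 9 higher and 3 lower, beside 901 and 1107 of 26226 genes. In complexes III and IV 0 were higher. Of the 25, 8 kept their call: *Ndufa7*, *Ndufa8*, *Ndufb9*, *Ndufs6*, *Sdhb*, *Atp5f1a*, *Atp5mc1* and *Atp5mf*. Without del9 replicate 3 the number higher was 15. The number lower was 2 without EV replicate 1, EV replicate 2, del9 replicate 4 or del9 replicate 5.

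The gene called lower was *mt-Nd6*, the 1 subunit encoded on the light strand. Its normalized counts were 724, 644, 632, 818 and 809 in del9 samples 1 to 5, against 857, 906 and 1013 as the lowest, median and highest of EV. All del9 samples were below all EV samples. The log2 fold change was -0.33 (SE 0.04, adjusted p = 4.83e-14, edgeR), and the exact permutation p was 0.00216, the smallest that 462 arrangements allow. It was called in each of 11 leave-one-out fits, with filterByExpr (adjusted p = 0.00162), with DESeq2 (2.10e-05) and with a robust prior (5.54e-12). Whether the groups differed in how much *mt-Nd6* mRNA the poly(A) selection captured was not tested.

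No heavy-strand gene was called lower with it, although *mt-Co1* was with a correction for gene length (adjusted p = 4.26e-05, edgeR). Without that correction, the groups overlapped for *mt-Co1* and its exact permutation p was 0.673. *mt-Nd5*, whose end overlaps that of *mt-Nd6* on the opposite strand, had 38018 ± 4654 with del9 (SD, n = 5) and 38255 ± 2564 with EV (SD, n = 6, exact permutation p = 0.866). Per 1000 reads of the heavy-strand mRNAs, *mt-Nd6* had 2.57 ± 0.203 reads with EV, 2.31 ± 0.385 with gdf6Y and 2.04 ± 0.185 with del9. Each del9 sample was below each EV sample in this ratio, the highest being 2.37 and the lowest 2.38. The ratio uses the same *mt-Nd6* counts and is not a separate test. With gdf6Y, replicates 2 to 5 were also below each EV sample, at up to 2.29, and replicate 1 was above them at 2.98. A low ratio was thus not particular to del9. *mt-Cytb* was called higher in del9 than in EV (log2 fold change 0.11), but its groups overlapped, its exact permutation p was 0.448 and it was not called with filterByExpr (adjusted p = 0.435).

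Of the nuclear genes, *Atp5mf*, the f subunit of the membrane part of ATP synthase, had the smallest adjusted p. Its normalized counts were 3800, 3656, 3868, 3700 and 3622 in del9 samples 1 to 5, and 3275, 3422 and 3536 as the lowest, median and highest of EV. The groups did not overlap (log2 fold change 0.13, SE 0.03, adjusted p = 0.000163, edgeR). *Atp5f1a* had 32528, 31646, 33223, 31819 and 32337 with del9, and 29909, 30322 and 30389 as the lowest, median and highest with EV, again without overlap (log2 fold change 0.10, SE 0.02, adjusted p = 0.000953, edgeR).

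In complex I, *Ndufa7*, an accessory subunit of the matrix arm, had 1565, 1482, 1512, 1499.6 and 1449.6 in del9 samples, and 1291, 1359 and 1416 as the lowest, median and highest of EV (log2 fold change 0.15, SE 0.03, adjusted p = 0.000379, edgeR). *Ndufa8*, an accessory subunit on the side of the intermembrane space, had 2087 to 2144 with del9 and 1902 to 2008 with EV, and *Ndufa11*, of the membrane arm, 931 to 1025 and 833 to 931. All 3 were without overlap, and for *Ndufa11* the groups nearly touched. *Atp5mf*, *Atp5f1a*, *Ndufa7*, *Ndufa8* and *Ndufa11* were called in each of the 11 leave-one-out fits.

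The rest of the 10 nuclear genes with the smallest adjusted p overlapped with EV. They were *Atp5mc3* and *Atp5mc1*, which encode the c subunit of the rotor ring (log2 fold change 0.11 and 0.12), *Uqcrq* (0.11), *Ndufb8* (0.12) and *Ndufs6* (0.14). Exons of *Ndufb8* share 68.6% of their bases with another annotated gene on the same strand, and reads in both were discarded. The other 14 genes called higher had log2 fold changes between 0.07 (*Atp5f1b*) and 0.12 (*Ndufb11*). *Sdhb*, the iron-sulfur subunit of complex II, was the 1 call there (0.09, SE 0.03, adjusted p = 0.0339, edgeR) and lost it in 7 of 11 leave-one-out fits.

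Without overlap, 8 of the 86 members averaging 10 or more reads lay above EV, against 4.47% of all such genes, and 1 lay below, against 2.99%. The 8 were *Ndufa7*, *Ndufa8*, *Ndufa11*, *Ndufb7*, *Atp5mf*, *Atp5f1a*, *Atp5f1b* and *Atp5f1d*, so that 4 were of complex I and 4 of complex V. Gene length moved with the nuclear calls. Over 12549 genes averaging 10 or more reads, Spearman's rho between exonic length and log2 fold change was -0.24 in del9 against EV and -0.31 in gdf6Y against EV, as a description across genes, and the median exonic length was 4151 bases for the nuclear members and 6152 for all these genes. With a correction for gene length, the 9 called higher in del9 against EV were the 8 that kept their call and *Ndufs4*. The 3 called lower were *mt-Nd6*, *mt-Co1* and *Uqcrb*. Without the correction, the groups overlapped for *mt-Co1* and *Uqcrb*. In gdf6Y against EV 10 were called higher, beside 463 of 26316 genes. Of these 10, *Ndufa4*, *Ndufa5*, *Ndufb7*, *Ndufv2* and 4 mitochondrial members had been called without the correction. With the correction, the median log2 fold change of the nuclear members was 0.03 in del9 and 0.04 in gdf6Y.

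**Figure D4:**
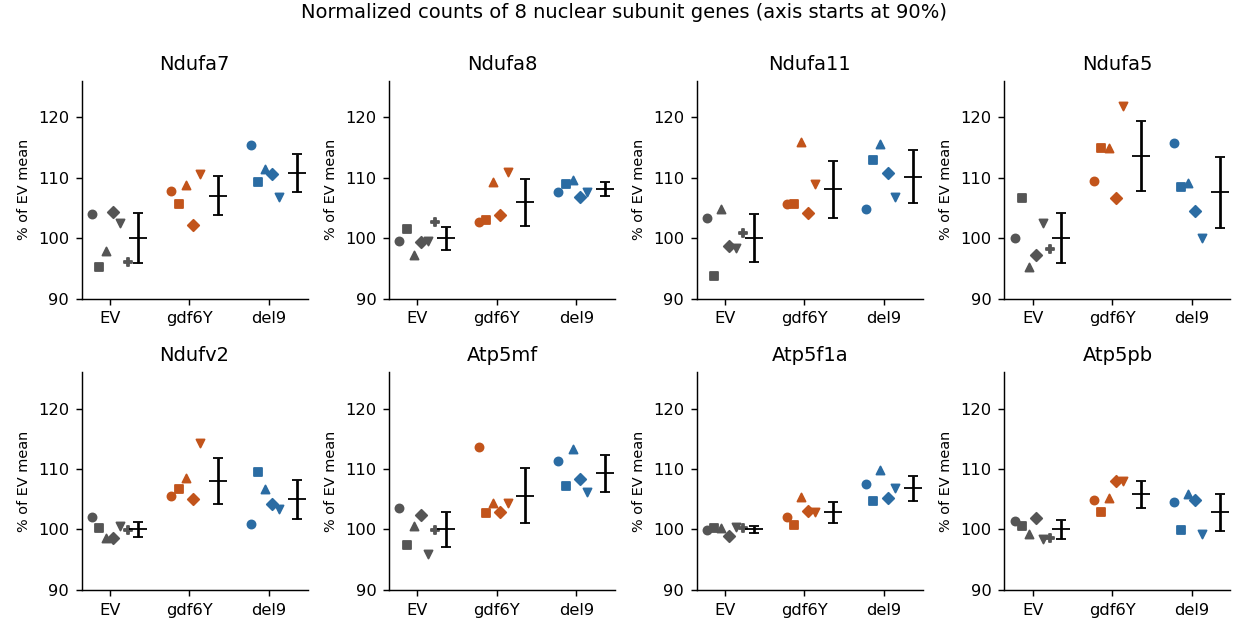
Points give normalized counts of 8 nuclear members as percent of the EV mean, by group, with the replicate number as the symbol (circle 1, square 2, triangle up 3, diamond 4, triangle down 5, plus 6) and the mean and SD beside them, on an axis that starts at 90%. Del9 lies above EV without overlap for *Ndufa7*, *Ndufa8*, *Ndufa11*, *Atp5mf* and *Atp5f1a*, and gdf6Y for *Ndufv2*, *Atp5f1a* and *Atp5pb*.

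The comparison of gdf6Y with del9 asks which changes depend on what the mutation removes. Of 91 members tested, 5 were called higher with gdf6Y, against 0.599% of all genes, and 0 lower, against 0.41%. With filterByExpr 0 were called higher, and with DESeq2 or a robust prior 1 was (*mt-Nd6*). All 5 were mitochondrial: *mt-Nd6* (log2 fold change 0.31), *mt-Nd4* (0.26), *mt-Co1* (0.20), *mt-Cytb* (0.17) and *mt-Nd2* (0.11). Of the 83 nuclear members tested 0 were called by edgeR without the replicate number, and 1 of them had an unadjusted p below 0.05. With the replicate number in the fit, *Atp5f1a* was called lower with gdf6Y, as the last section gives. The median log2 fold change of the nuclear members was 0.01, 42 of 79 were above 0, and DESeq2, filterByExpr and a robust prior also called 0 of them.

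Of the 5, *mt-Nd6* was the 1 with an exact permutation p below 0.05. Its counts were 805, 908, 885, 956 and 944 in gdf6Y samples 1 to 5, and the 2 highest del9 samples, at 818 and 809, overlapped the lowest gdf6Y sample. Its exact permutation p was 0.0238, DESeq2 gave an adjusted p of 0.00392, and filterByExpr gave 0.0504. For *mt-Nd4*, *mt-Co1*, *mt-Cytb* and *mt-Nd2* the exact permutation p-values were 0.230, 0.413, 0.452 and 0.444, and none was called by DESeq2 or with filterByExpr. These values take no account of the replicate number. Within a number, gdf6Y was above del9 in 5 of 5 numbers for *mt-Nd2*, *mt-Nd4* and *mt-Nd6*. For *mt-Co1* and *mt-Cytb* it was above in 4 of 5, and below for number 1. No member lay outside the range of the other group in this comparison, against 0.803% of all genes that averaged 10 or more reads above it and 1.39% below it. The 3 comparisons share samples pairwise and are not independent of each other. The 21 exact tests of mitochondrial genes between groups are two-sided and without adjustment.

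The within-group SD over the 3 groups put the mitochondrial members apart from the nuclear ones. It was 0.27 on the log2 scale for *mt-Co1* and *mt-Nd4*, 0.25 for *mt-Cytb*, 0.18 for *mt-Nd2* and *mt-Nd5*, 0.16 for *mt-Nd1* and 0.13 for *mt-Nd6*. *mt-Co1* was above 99.9% and *mt-Nd6* above 97.7% of the 7517 genes averaging 500 or more reads. The 74 nuclear members of that abundance had a median SD of 0.05, the same to 2 decimals as all 7517 genes.

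Genes that build, supply or control the respiratory chain were read from lists of related genes. *Cyc1*, the cytochrome c1 subunit of complex III that the symbol rule does not take, had 8421 ± 336 normalized counts with del9 and 7845 ± 78.0 with EV, without overlap (log2 fold change 0.10, SE 0.03, adjusted p = 0.00124, edgeR), and was not called with a correction for gene length. *Cycs*, cytochrome c itself, had a log2 fold change of 0.09 with gdf6Y and 0.09 with del9 against EV and was not called (adjusted p = 0.0791 and 0.0519, edgeR), although the gdf6Y and EV samples did not overlap. *Ndufab1*, the acyl carrier protein of complex I, had 0.12 and 0.07 and was not called (adjusted p = 0.0917 and 0.447, edgeR), but with a correction for gene length it was called in gdf6Y against EV.

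No assembly factor was called in gdf6Y against EV or del9. Counts in lists are to be read beside the share of all genes called, 1.7% higher and 3.38% lower in gdf6Y against EV, 0.599% and 0.41% in gdf6Y against del9, and 4.82% and 4.43% in del9 against EV. These shares include genes with very few reads. With filterByExpr, 1073 of 12696 genes were higher and 1053 lower in del9 against EV. Of 17 listed for complex I, 4 for complex II and 9 for complex III, 0 were called by edgeR in any of the 3 comparisons, with at most 3 at an unadjusted p below 0.05 in a list and medians between 0.01 and 0.06. For complex IV, 23 genes were listed, and in del9 against EV *Cox19* was higher (log2 fold change 0.19) and *Cox17*, a copper chaperone, lower (log2 fold change -0.26, SE 0.09, adjusted p = 0.0356, edgeR), with overlap and an exact permutation p of 0.0736. For complex V, *Atpaf1* (log2 fold change 0.22, SE 0.08, adjusted p = 0.0453, edgeR) and *Atpaf2* (0.17), which help to assemble the catalytic part of ATP synthase, were called higher in del9 against EV, of 5 genes listed.

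Of 10 genes of mitochondrial transcription, 0 were called by edgeR in any comparison, and 2 had an unadjusted p below 0.05, both in del9 against EV. *Tfam*, which packs mitochondrial DNA and starts its transcription, had 1579 ± 84.3 with EV, 1614 ± 19.7 with gdf6Y and 1655 ± 54.9 with del9. *Polrmt*, the mitochondrial RNA polymerase, had 971 ± 22.9, 949 ± 35.0 and 964 ± 54.5, with overlapping groups for both genes. Of 20 genes of mitochondrial RNA processing and decay, 5 were called higher with del9 against EV, where all genes gave 4.82%, and 0 in the other comparisons, where 4 and 2 had an unadjusted p below 0.05. The 5, named after their values were seen, were *Elac2*, *Trmt10c* and *Hsd17b10*, which take part in cutting the long mitochondrial transcripts at tRNAs, *Tbrg4* and *Rexo2*, with log2 fold changes of 0.10 to 0.11. With a correction for gene length *Elac2*, *Tbrg4* and *Rexo2* kept their call. *Lrpprc*, which stabilizes heavy-strand mRNAs, had log2 fold changes of -0.02 with gdf6Y and 0.04 with del9 against EV and was not called. Of 10 genes of mitochondrial DNA replication, 1 was higher (*Top1mt*) and 1 lower (*Primpol*) with del9 against EV.

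Of 10 nuclear regulators of mitochondrial genes, 1 was lower with gdf6Y (*Sp1*), beside 3.38% of all genes. With del9 against EV 1 was higher (*Esrra*), beside 4.82%, and 2 were lower (*Sp1* and *Ppargc1a*), beside 4.43%. *Ppargc1a*, a coactivator of mitochondrial biogenesis, had 476 ± 61.4 with EV and 427 ± 13.6 with del9 (log2 fold change -0.15, SE 0.05, adjusted p = 0.0286, edgeR). All its del9 samples, at 413 to 444, lay inside the EV range of 390.2 to 547, and the exact permutation p was 0.132. With gdf6Y it had 439 ± 59.5, without a call. *Ppargc1b* and *Nrf1* were not called, with log2 fold changes of -0.10 and 0.04 with gdf6Y and -0.05 and 0.05 with del9 against EV. Of 18 genes taken as a measure of mitochondrial mass, 1 was higher with gdf6Y (*Fh1*), beside 1.7% of all genes, and 4 with del9 (*Mdh2*, *Vdac1*, *Tomm20* and *Tomm40*), beside 4.82%, all against EV, and 0 were lower. With a correction for gene length 3 were higher in each, beside 463 of 26316 genes with gdf6Y and 901 of 26226 with del9. Their median log2 fold change was 0.04 against EV in both.

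Promoters of the nuclear members were read because most of the members lay on the same side of 0 against EV. RefSeq sequences in GRCm38.p6, from 250 bases before to 50 after the start, matched 64 of the 79 nuclear members. GCATGCGC, the core of the motif of NRF1, was found on either strand in 15.6% of the members and in 6.38% of 8897 protein-coding genes averaging 10 or more reads. It reads nearly alike on both strands, so matches on opposite strands can overlap. AAGATGGC, a motif of YY1, was found in 15.6% and 5.63%, and CCGGAAG, a core of ETS factors such as GABPA, in 25.0% and 21.4%. Among 27025 genes with a promoter the shares were 3.05%, 3.19% and 9.93%. Of 19 matched members called higher in del9 against EV, 5 held the first motif, 3 the second and 4 the third, beside 10, 10 and 16 of the 64. The 3 promoters shown belong to members called in del9 against EV and show the motifs in capitals: *Ndufa11* at chr17:56717512-56717811 on the plus strand, *Cox6a1* at chr5:115348909-115349208 and *Atp5mf* at chr5:145191492-145191791, both on the minus strand.
*Ndufa11*: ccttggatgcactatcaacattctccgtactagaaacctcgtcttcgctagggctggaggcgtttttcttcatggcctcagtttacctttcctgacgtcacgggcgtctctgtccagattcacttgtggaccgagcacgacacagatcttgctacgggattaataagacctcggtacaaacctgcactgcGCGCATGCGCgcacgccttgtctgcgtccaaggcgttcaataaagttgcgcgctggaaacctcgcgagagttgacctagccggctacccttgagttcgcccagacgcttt
*Cox6a1*: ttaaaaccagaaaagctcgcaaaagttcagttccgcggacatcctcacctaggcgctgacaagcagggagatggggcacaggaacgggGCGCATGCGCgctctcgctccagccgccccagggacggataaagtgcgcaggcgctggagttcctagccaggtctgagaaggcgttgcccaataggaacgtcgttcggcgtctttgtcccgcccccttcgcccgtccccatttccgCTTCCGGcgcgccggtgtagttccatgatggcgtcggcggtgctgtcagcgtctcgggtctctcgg
*Atp5mf*: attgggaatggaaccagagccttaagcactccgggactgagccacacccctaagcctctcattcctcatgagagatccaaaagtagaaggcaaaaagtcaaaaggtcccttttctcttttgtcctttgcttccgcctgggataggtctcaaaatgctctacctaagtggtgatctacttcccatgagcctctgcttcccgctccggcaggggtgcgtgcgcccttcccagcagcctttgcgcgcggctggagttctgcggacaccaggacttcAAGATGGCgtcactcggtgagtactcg
In *Ndufa11* and *Cox6a1* the run of 10 capitals is the NRF1 motif read on both strands, and *Cox6a1* has the ETS core on the opposite strand further on. In *Atp5mf* the capitals are the YY1 motif, which lies near the end of the window, after the start of the transcript. A match is a description of letters, and binding was not measured.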

How the data were processed

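RNA from TM4 cells was made into poly(A)-selected, directional libraries with unique molecular identifiers. Per the submitters' processing notes and the study's methods, the authors used bcl2fastq 2.20.0.422, UMI-tools, STAR 2.7.10a on GRCm39 and featureCounts 2.0.3, removed duplicate molecules, counted by strand and discarded reads with several alignments or genes. The deposited values are raw counts per gene in 16 samples. 2 further samples that the study names as of low quality were not analysed here.

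Gene symbols came from a GRCm39 annotation, which matched 56017 of the 56748 identifiers. Counts were tested as deposited with edgeR 4.0.16 in R 4.3.3 (TMM scaling, quasi-likelihood test, every gene with a read in 1 of the samples compared, Benjamini-Hochberg adjustment over all genes tested, threshold 0.05). Each comparison used its own groups. The test was run on simulated data with known changes. Exact permutation tests were two-sided on log2 normalized counts and unadjusted, and those of called genes in the related lists were added after the data were seen. DESeq2 1.42.0, robust priors, other scalings and filters, replicate blocks, gene length correction and fits without each sample were alternatives. Copies were found by matching every window of read length to the genome, which is an approximation of how reads aligned.

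The members and gene lists were chosen with earlier results of these data known. Named were all mitochondrial members, nuclear members that were called (the 10 with the smallest adjusted p where over 10 were called in a direction), the highest and lowest counted nuclear member of each complex, the complex IV paralogs, 9 regulators and partners, and listed genes called beyond 0.2 on the log2 scale. Other names were chosen after their values were seen.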

Additional observations from a re-analysis of the deposited data

Results flagged for a closer look

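Among 135 groups of values (a member or a share within a group), 6 held a sample far from the rest, where chance gives about 1 in 20, or 6.75. The gap is given as a share of the group's range. For *mt-Nd6* reads per 1000 heavy-strand reads in del9 it was 0.931, with replicate 1 at 2.37 and the others at 1.94 to 1.97. For *Atp5mf* in gdf6Y it was 0.855, with replicate 1 at 3880 normalized counts and the others at 3507 to 3561. For *mt-Nd2* in EV it was 0.748, with replicate 1 at 20191 and the others at 23373 to 24442. For *Atp5f1b* in EV it was 0.744, with replicate 1 at 46883 and the others at 45510.0 to 45862. For *Atp5mc3* in del9 it was 0.727, with replicate 5 at 9188 and the others at 9694 to 9884. For *Atp5if1* in EV it was 0.67, with replicate 3 at 1095 and the others at 1207 to 1262. Of the 6, 4 were replicate 1, and why was not tested.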

How the results depend on the processing

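Of 256 recomputed values of 13 results, 227 stayed within 1.5 times the count, or within 1 SD, and 29 moved. Members called higher in gdf6Y against EV were 8 with the edgeR 4 dispersion and 8 to 26 without 1 sample. In gdf6Y against del9 they were 1 with a robust prior or DESeq2, 2 with the edgeR 4 dispersion, 0 with filterByExpr or at least 10 counts in every sample, and 4 to 7 without 1 sample. In del9 against EV they were 16 with scaling by total counts, 9 with gene length correction and 15 to 28 without 1 sample. Members called lower there were 2 with total counts, 3 with gene length correction and 1 to 2 without 1 sample. The causes were not tested. As a share of respiratory chain reads, the mitochondrial difference was 1.3 percentage points for gdf6Y against EV, 2.58 for gdf6Y against del9 and -1.29 for del9 against EV. Without 1 sample, the difference in share of all reads ranged from 0.0888 to 0.298, 0.105 to 0.314 and -0.0756 to 0.0333 percentage points, and the median log2 fold change of nuclear members from 0.06 to 0.09, -0.0025 to 0.02 and 0.05 to 0.08. The share difference of del9 against EV and the nuclear median of gdf6Y against del9 thus took both signs, and neither had a test.

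Samples of the same replicate number did not deviate together in every pair (correlations over 12584 genes of 0.00400 to 0.198 for gdf6Y and EV, 0.0994 to 0.163 for gdf6Y and del9 and -0.0282 to 0.161 for del9 and EV), so the numbers were not taken as pairs. These correlations cover all such genes, while the mitochondrial members with usable counts passed the main test for replicate number. With the replicate block, 33 members were called higher in gdf6Y against EV (33 also with filterByExpr). Over all genes 912 of 26062 were higher there, and 994 of 12636 with filterByExpr. In gdf6Y against del9 the block called 7 members higher and 1 lower (*Atp5f1a*), beside 289 and 372 of 25878 genes. For del9 against EV it called 29 higher and 2 lower, beside 1548 and 1460 of 25989 genes. The block with filterByExpr, added after seeing the data, gave 3 higher in gdf6Y against del9, beside 145 of 12630 genes. It also called 5 mitochondrial genes higher in gdf6Y against EV, with adjusted p of 3.38e-05 for *mt-Cytb* and 0.0112 for *mt-Co1*, where filterByExpr without the block called 0 of them. The block with gene length correction gave 1 lower in gdf6Y against del9, beside 311 of 25878 genes. It gave 5 lower in del9 against EV, beside 1371 of 25989. The 6 mitochondrial genes inside the copied stretch had at most 1 read per sample in the deposited counts. Every setting started from those counts, so none could give a usable count for these genes.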
